A study of Mus musculus with 2 samples.

Results

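The comparison set 48 mAG+ cells against 48 mKO2high cells, 96 of the 192 cells in the series, as the opposite ends of the Fucci cell cycle reporter. The cells were chosen by the gate that the deposited cell table gives for each of them, and no measured expression entered the choice. All cells came from bone marrow of C57BL/6 mice aged 8 weeks, and the series concerns quiescent blood stem cells. The other 96 cells, 48 labelled mKO2low and 48 labelled mKO2neg, are used here as the steps between the ends. The 48 mAG+ cells shared a library with the mKO2neg cells, and the 48 mKO2high cells shared the other library with the mKO2low cells, so the reporter gate and the library cannot be told apart in the direct comparison. The labels name no animals, no separate cultures and no surface marker sort, so each gate was 1 sample and every difference below has no replicate check.

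Fucci mice carry 2 fusion proteins that are made and destroyed in alternation. One, the orange mKO2, carries a piece of Cdt1, a factor that loads the replicative helicase onto origins and is destroyed once DNA synthesis starts, so orange marks G0 and G1. The other, the green mAG, carries a piece of geminin (Gmnn), the inhibitor of Cdt1, which is destroyed by the anaphase-promoting complex at the end of mitosis, so green marks S, G2 and M. In the marrow, most blood stem cells rest in G0, and the genes of the mitotic apparatus are switched on by B-Myb and FoxM1 in S and G2 and held down by the DREAM complex in resting cells.

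Libraries were made from single cells by a Smart-seq2 variant that enriches the 3′ ends of transcripts, and the values were whole-number counts per gene. The mAG+ gate held 2791584 counts, with a median of 45177 per cell, and the mKO2high gate held 934036, with a median of 14510.5 and 1 cell without any count. A count was worth 0.358 CPM (counts scaled to the gate's total) in mAG+ and 1.07 CPM in mKO2high. With 3 counts taken as the floor over a gate, a gene without counts could lie at up to 1.07 CPM in mAG+ and 3.21 CPM in mKO2high. Because the depths differ, counts were also drawn down to 5000 in every cell that had as many, which kept 45 mAG+ cells and 39 mKO2high cells and is called equal depth below. At equal depth, mAG+ cells still had more genes with a count, a median of 2140 against 1787. No cell name was shared between the libraries.

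The gene labels of the deposited tables were displaced by 1 gene, and each gene was therefore read from the row of the gene before it in GENCODE order. The check used 40 genes, housekeeping genes along with Malat1 and blood cell genes such as Ptprc, Kit and Cd34. Of these 40, 40 had more counts in that preceding row, with a median of 9682 counts there and 6 under their own label. Protein-coding genes held 92.8% of all counts when read this way, against 52.0% under the deposited labels and 53.2% when the following row was read. Ribosomal protein genes held 20.05% in place of 0.178%. Read this way, 8 of 8 blood stem cell markers were counted in both gates, with a summed level of 1372 CPM in mAG+ and 2400 CPM in mKO2high. The 6 erythroid markers summed to 135 CPM in mAG+ and 101 CPM in mKO2high, with Gata1 and Klf1 at 0 in both. The 5 T and NK cell markers had 7 counts in mAG+ and 0 in mKO2high, whereas Klrb1c, outside these 5, had 8 and 4.

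Of 25 gene lists, G2 and mitosis had the largest median difference between the gates, and promoters of these genes are known for a CCAAT box, bound by NF-Y, together with a cell cycle homology region (CHR), bound by the DREAM and B-Myb complexes. Promoters of replication genes are known for E2F sites. RefSeq promoters (GRCm38.p6, 250 bases before to 50 after each start) of 4 mitotic genes and 2 helicase subunits whose values follow are printed here 5′ to 3′ on the strand of the gene, so that the motifs can be seen beside the counts. Capitals mark a CCAAT box (CCAAT), a CHR (TTTGAA) or an E2F site (TTTCCCGC, TTTCGCGC, TTTGCCGC or TTTGGCGC) on either strand, and overlapping spellings run together.
Top2a, chr11:99024140-99024439, minus strand: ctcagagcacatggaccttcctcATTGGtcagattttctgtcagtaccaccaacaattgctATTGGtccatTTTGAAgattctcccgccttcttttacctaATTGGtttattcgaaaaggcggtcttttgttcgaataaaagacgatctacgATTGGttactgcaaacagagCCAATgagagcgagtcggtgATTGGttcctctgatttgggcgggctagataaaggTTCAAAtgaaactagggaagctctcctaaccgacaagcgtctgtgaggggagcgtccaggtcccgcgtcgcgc
Ccnb2, chr9:70421505-70421804, minus strand: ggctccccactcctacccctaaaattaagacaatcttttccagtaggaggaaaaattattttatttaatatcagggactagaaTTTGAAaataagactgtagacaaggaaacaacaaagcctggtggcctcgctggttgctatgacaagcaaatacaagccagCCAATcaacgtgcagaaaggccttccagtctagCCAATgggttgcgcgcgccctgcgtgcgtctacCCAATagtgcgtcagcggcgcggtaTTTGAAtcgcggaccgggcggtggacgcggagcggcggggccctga
Ube2c, chr2:164769679-164769978, plus strand: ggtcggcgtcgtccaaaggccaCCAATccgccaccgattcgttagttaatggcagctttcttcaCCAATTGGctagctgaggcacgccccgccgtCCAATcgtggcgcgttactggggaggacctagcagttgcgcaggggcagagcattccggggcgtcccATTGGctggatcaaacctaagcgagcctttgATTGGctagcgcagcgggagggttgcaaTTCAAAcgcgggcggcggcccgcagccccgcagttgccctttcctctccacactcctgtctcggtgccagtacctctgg
Cdk1, chr10:69352863-69353162, minus strand: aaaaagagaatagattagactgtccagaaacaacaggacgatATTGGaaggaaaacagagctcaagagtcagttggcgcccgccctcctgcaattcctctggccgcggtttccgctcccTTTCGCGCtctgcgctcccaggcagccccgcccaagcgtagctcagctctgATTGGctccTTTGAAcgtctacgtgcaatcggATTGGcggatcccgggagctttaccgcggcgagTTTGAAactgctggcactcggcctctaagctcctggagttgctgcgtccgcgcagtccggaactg
Mcm5, chr8:75109259-75109558, plus strand: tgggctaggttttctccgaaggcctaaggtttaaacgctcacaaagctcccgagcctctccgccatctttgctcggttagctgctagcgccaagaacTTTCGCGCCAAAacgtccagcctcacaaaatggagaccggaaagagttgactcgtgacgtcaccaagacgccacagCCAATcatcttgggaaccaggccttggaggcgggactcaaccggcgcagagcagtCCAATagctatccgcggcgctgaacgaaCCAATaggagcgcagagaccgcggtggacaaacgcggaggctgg
Mcm6, chr1:128359656-128359955, minus strand: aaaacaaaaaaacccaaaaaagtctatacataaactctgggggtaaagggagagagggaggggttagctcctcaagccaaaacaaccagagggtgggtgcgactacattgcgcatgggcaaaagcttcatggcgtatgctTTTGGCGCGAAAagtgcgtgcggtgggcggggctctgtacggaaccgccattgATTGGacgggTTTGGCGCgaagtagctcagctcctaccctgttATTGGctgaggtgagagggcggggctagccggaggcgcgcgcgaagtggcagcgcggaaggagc
The Top2a promoter held 6 CCAAT boxes and 2 CHR matches, and that of Ube2c held 6 and 1. The Ccnb2 promoter held 3 CCAAT boxes and 2 CHR matches. The Cdk1 promoter held all 3 motifs, with 3 CCAAT boxes, 2 CHR matches and 1 E2F site. The Mcm5 promoter held 2 E2F spellings and that of Mcm6 held 3, counting overlapping spellings on both strands separately, and neither held a CHR. Promoters that are not printed did not all follow this pattern. That of Mcm2, the other helicase subunit described, held 1 CHR and no E2F site, and that of Ccnb1 2 CCAAT boxes and no CHR.

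Across the list of G2 and mitosis genes, 69 of 86 had a promoter in the RefSeq table. Of these 69, 66.7% held a CHR, against 14.3% of the 8427 measured protein-coding genes with a promoter. A CCAAT box was found in 72.5% against 43.1%, and both motifs together in 55.1%, or 38 genes, against 6.03%. Over all 32851 promoters of the table, one a row, both motifs together occurred in 6.95%. E2F sites were found in 34.8% of 46 replication genes with a promoter, and in 66.7% of the 9 genes of origin licensing among them, against 4.996% of the measured protein-coding genes. Among the 11 nucleotide supply genes with a promoter, none matched an E2F spelling, which says only that these letters are not in this window. A match is a string of letters and not a measured binding site. The promoters of Nusap1, Pttg1, Tyms and Tk1 held none of the 3 motifs.

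**Figure D1:**
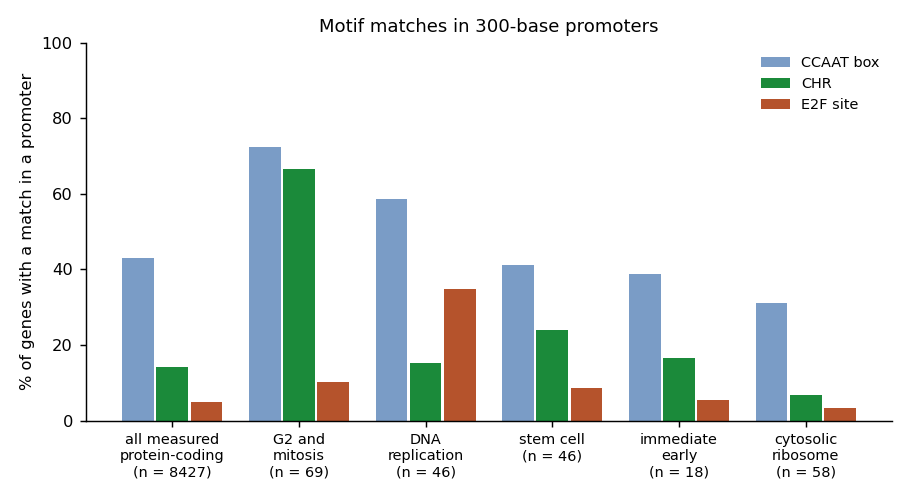
Bars give the percentage of genes with a promoter (n under each group) whose 300-base RefSeq promoter holds a CCAAT box, a CHR or an E2F site on either strand. The G2 and mitosis genes stand at 66.7% for the CHR against 14.3% of all measured protein-coding genes, and the DNA replication genes at 34.8% for E2F sites against 4.996%.

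Over all genes, 11849 had at least 10 counts over both gates and are called measured. Of these, 26.2% (3105 genes) were at least 2-fold higher in mAG+ and 17.1% (2024 genes) at least 2-fold higher in mKO2high, where 2-fold means a log2 ratio of mAG+ over mKO2high of at least 1 in size, with a prior count of 1. The median log2 ratio of all measured genes was 0.12. At equal depth 6377 genes were measured, with 16.4% at least 2-fold higher in mAG+, 14.2% at least 2-fold higher in mKO2high, 49.9% above 0 and a median of 0.00. A gene that reached 10 counts through the deeper mAG+ gate alone had to differ, and 866 measured genes had no count in mKO2high against 98 with none in mAG+. Counts of list members below are to be read against these shares.

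The G2 and mitosis genes were counted in mAG+ cells at levels far above those in mKO2high cells. Of 86 listed genes, 86 were measured and 85 were at least 2-fold higher in mAG+, none in mKO2high, and their median log2 ratio was 5.47 (4.12 to 9.38, the medians of the members' lower and upper 95% limits). In mKO2high, 26 of them had no count at all, and with those taken at the floor the median was 5.02. At equal depth, 79 of 81 measured members were at least 2-fold higher in mAG+ and the median was 4.23. Their summed level was 39403 CPM in mAG+, then 7672 (mKO2neg), 4451 (mKO2low) and 3261 (mKO2high). The order of the lower gates did not hold for the typical cell. The median share of a cell's counts was 3.85% in mAG+, then 0.338% (mKO2neg), 0.333% (mKO2low) and 0.341% (mKO2high). Single cells reached 3.84% in mKO2neg and 1.91% in mKO2low, against 0.659% in mKO2high.

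By role, 13 of 13 genes of the mitotic cyclins, Cdk1 and its switches were at least 2-fold higher in mAG+. Their median log2 ratio was 5.34, or 4.23 with the 4 members without counts in mKO2high at the floor. Ccna2, cyclin A2, which acts from S phase into mitosis, had 1085 counts in 44 of 48 mAG+ cells and none in mKO2high. Its level was 389 CPM in mAG+, then 52.2 (mKO2neg), 4.70 (mKO2low) and 0 (mKO2high), at least 121-fold higher in mAG+ than the mKO2high floor. Ccnb2, a B-type cyclin that drives entry into mitosis, stood at 768 CPM in mAG+, then 92.6 (mKO2neg), 5.28 (mKO2low) and 2.14 (mKO2high). Its log2 ratio was 8.16 (95% interval 6.63 to 11.53), with 2143 counts against 2. In summed counts the mAG+ gate was the highest for both cyclins, and mKO2neg lay between it and the mKO2 gates. Of 48 mKO2neg cells, 8 held a Ccna2 count and 23 a Ccnb2 count. Ccnb1, the partner cyclin, was at 238 CPM against 5.35, a log2 ratio of 5.34 (4.24 to 7.10).

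Cdk1, the kinase that these cyclins switch on, was counted in 44 of 48 mAG+ cells and in 8 of 48 mKO2high cells. Its level was 657 CPM in mAG+, then 114 (mKO2neg), 22.9 (mKO2low) and 36.4 (mKO2high). The log2 ratio was 4.15 (3.68 to 4.71). The step from mKO2high to mKO2low was at -0.65, with an interval across 0 (-1.37 to 0.04). Plk1, the polo kinase of mitotic entry and spindle assembly, had 513 counts in mAG+ and none in mKO2high, at least 57.2-fold higher.

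The 12 genes of the Aurora kinases and the centromere complex and the 12 kinetochore genes, which hold chromosomes to the spindle, were each at least 2-fold higher in mAG+. Their medians were 6.75 and 7.16. With the 6 and 2 members without counts in mKO2high at the floor, the medians were 5.77 and 5.41. The summed kinetochore level was 4077 CPM in mAG+, then 669 (mKO2neg), 225 (mKO2low) and 77.1 (mKO2high). Of 23 spindle motors and microtubule proteins, 23 were at least 2-fold higher in mAG+. Their median was 6.24, or 5.11 with the 11 members without counts in mKO2high at the floor. Nusap1, which bundles spindle microtubules, had 1265 counts in 44 mAG+ cells against none, at least 141-fold higher. Kif22, a motor that pushes chromosome arms toward the spindle's middle, had 1035 counts against none, at least 115-fold higher.

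Chromosome condensation genes were at least 2-fold higher in 11 of 11 cases, with a median of 4.61. Top2a, the topoisomerase that untangles sister DNA, was counted in 45 of 48 mAG+ cells and in 3 of 48 mKO2high cells, with 3934 counts against 4. Its level was 1409 CPM in mAG+, then 161 (mKO2neg), 46.4 (mKO2low) and 4.28 (mKO2high), and the log2 ratio was 8.19 (7.005 to 10.24). At equal depth, 97.8% of 45 mAG+ cells held a Top2a count, against 0 of 39 mKO2high cells. Taken as 3 of 39, that count of 0 allows a share of up to 7.69% of cells with a count at this depth. The exact 95% upper limit is 9.03%, and both take the cells of the gate as independent draws. Mki67, the proliferation marker that coats mitotic chromosomes, had 1864 counts against 4, with 668 CPM in mAG+, then 67.1 (mKO2neg), 5.28 (mKO2low) and 4.28 (mKO2high). For Mki67 both mKO2 gates lay close to each other, and the log2 ratio of the extremes was 7.12 (5.93 to 9.16).

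Of 15 genes of anaphase and mitotic exit, 14 were at least 2-fold higher in mAG+. Their median was 4.98, or 3.51 with the 3 members without counts in mKO2high at the floor. Ube2c, the ubiquitin-conjugating enzyme of the anaphase-promoting complex, had 2583 counts against 2, with 925 CPM in mAG+, then 41.0 (mKO2neg), 3.52 (mKO2low) and 2.14 (mKO2high). Cdc20, which brings substrates to that complex, had 1018 counts in 44 mAG+ cells against none, at least 114-fold higher. Pttg1, securin, which holds the sister-separating protease in check until anaphase, was the 1 listed member that lay below 0. It stood at 49.1 CPM in mAG+, then 123 (mKO2neg), 96.9 (mKO2low) and 95.3 (mKO2high), a log2 ratio of -0.95 (-1.35 to -0.56), and at equal depth it was at -0.75.

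Counted cell by cell at equal depth, the 2 gates did not overlap for this list. Of all genes measured at that depth, 16.4% were at least 2-fold higher in mAG+. The 45 mAG+ cells held counts of 21 to 67 of the 86 genes, with a median of 51. The 39 mKO2high cells held 2 to 13, with a median of 7. A share of cells with at least 5 of the genes did not separate the gates, at 100% of mAG+ (92.1% to 100%) and 89.7% of mKO2high cells (75.8% to 97.1%, exact Clopper-Pearson 95% intervals). In the middle gates, 48 mKO2low cells held 5 to 23 (median 8) and 43 mKO2neg cells 4 to 54 (median 9, upper quartile 12.5). The intervals of the shares of cells take the cells of a gate as independent draws. Those of the ratios cover counting error only, and may be too narrow even for that, since reads without molecular identifiers are not independent molecules. The sources do not say that such identifiers were used. Neither kind covers differences between animals or libraries.

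**Figure D2:**
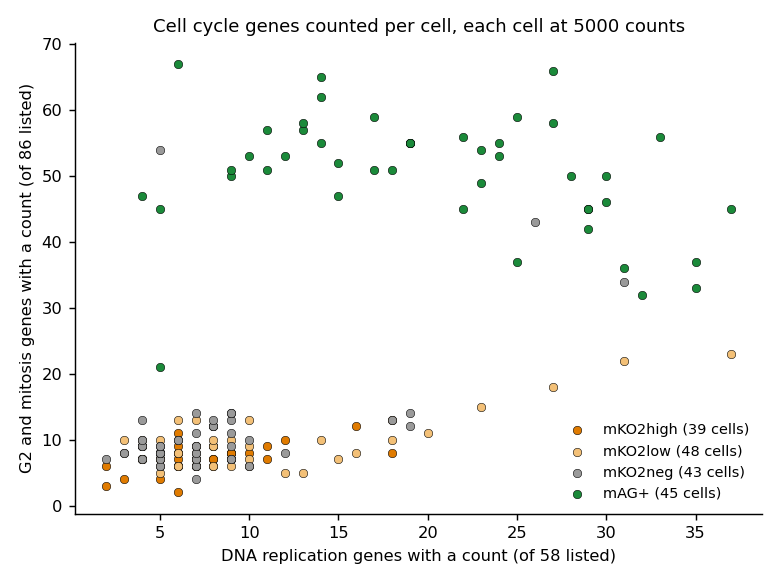
Each point is 1 cell thinned to 5000 counts, placed by how many of the 58 listed DNA replication genes (x axis) and of the 86 listed G2 and mitosis genes (y axis) had a count. The mAG+ cells lie at 21 to 67 on the y axis and the mKO2high cells at 2 to 13, whereas on the x axis the gates overlap, at 4 to 37 and 2 to 18.

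DNA replication genes were higher in mAG+ by a smaller margin than the mitotic genes, and the mKO2high cells were not devoid of them. Of 58 listed genes 56 were measured, 44 were at least 2-fold higher in mAG+ (background 26.2%) and 2 in mKO2high (background 17.1%), and the median log2 ratio was 1.94 (1.51 to 2.81). At equal depth the count was 35 of 49 in mAG+ and 1 in mKO2high, with a median of 1.67. Their summed level was 7891 CPM in mAG+, then 4501 (mKO2neg), 3550 (mKO2low) and 2497 (mKO2high). The median share of a cell's counts was 0.747% in mAG+, then 0.194% (mKO2neg), 0.229% (mKO2low) and 0.195% (mKO2high). Per cell at equal depth, mAG+ cells held 4 to 37 of the 58 genes (median 19) and mKO2high cells 2 to 18 (median 6), so the gates overlapped for this list.

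Among the genes of origin licensing, 10 of 11 measured were at least 2-fold higher in mAG+, with a median of 2.53. Mcm2, Mcm5 and Mcm6 are subunits of the replicative helicase. Mcm2 stood at 82.7 CPM in mAG+, then 48.5 (mKO2neg), 70.5 (mKO2low) and 13.9 (mKO2high), a log2 ratio of 2.53 (1.77 to 3.50). Mcm5 stood at 143, 125, 97.5 and 39.6 CPM in the same order, a log2 ratio of 1.84 (1.37 to 2.38). For both, mKO2high was the lowest of the 4 gates. Mcm6 was at 228 CPM in mAG+ against 99.6 in mKO2high (log2 ratio 1.19, 0.88 to 1.53), and its ratio was 0.34 at equal depth.

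The reporter's own parent genes were both higher in mAG+. Gmnn was counted in 39 of 48 mAG+ cells and 5 of 48 mKO2high cells, at 210 CPM in mAG+, then 85.2 (mKO2neg), 53.4 (mKO2low) and 18.2 (mKO2high), a log2 ratio of 3.49 (2.84 to 4.32). Cdt1, whose protein fragment marks the orange cells, was at 86.3 CPM in mAG+, then 36.7 (mKO2neg), 35.2 (mKO2low) and 4.28 (mKO2high), a log2 ratio of 4.17 (2.96 to 6.22). The orange gate with the most reporter thus had the lowest Cdt1 transcript level of the 4 gates. Of 10 genes that act in destroying the 2 reporter proteins, 3 were at least 2-fold higher in mAG+ and none in mKO2high, a share near that of all measured genes (26.2%), and their median of 0.46 had a range across 0 (-0.07 to 1.04). Skp2, which recognises Cdt1, had 132 counts against 3, a log2 ratio of 3.67 (2.30 to 6.18). Dtl, which recognises Cdt1 bound at replication forks, was at 123 CPM against 42.8, and Fzr1, the anaphase-promoting complex partner of G1, at 128 against 55.7.

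Of 33 measured replication fork genes, 25 were at least 2-fold higher in mAG+ and 2, Pole and Pole2, in mKO2high. Pcna, the sliding clamp, was at 381 CPM in mAG+, then 327 (mKO2neg), 129 (mKO2low) and 126 (mKO2high), a log2 ratio of 1.59 (1.32 to 1.88). Its levels split by library, with a log2 ratio of 1.34 between the middle gates and 0.22 and 0.03 within the libraries, and the part of the library in this was not tested. Clspn, claspin, an adaptor of the fork checkpoint, had 382 counts against 1, a log2 ratio of 6.42 (4.51 to 12.31). Mcm10, which helps to fire the helicase, had 150 counts against none, at least 16.7-fold higher. Pole, the leading strand polymerase, was at 30.8 CPM against 99.6, a log2 ratio of -1.68 (-2.13 to -1.25). Pole2, its second subunit, was also at -1.68 from 25 and 28 counts, but stood at 0.85 at equal depth, where it had only 5 and 2 counts.

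Of 12 nucleotide supply genes, 9 were at least 2-fold higher in mAG+. Rrm2, the regulated subunit of ribonucleotide reductase, had 568 counts against none, at least 63.3-fold higher, with 203 CPM in mAG+, 52.8 in mKO2neg and 4.70 in mKO2low. Tyms, thymidylate synthase, was at 273 CPM in mAG+, then 76.5 (mKO2neg), 41.7 (mKO2low) and 3.21 (mKO2high), a log2 ratio of 6.19 (4.86 to 8.69). Tk1, thymidine kinase, was at 354, 104, 32.3 and 2.14 CPM in the same order. The summed levels of all 3 were ordered from mAG+ down to mKO2high.

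**Figure D3:**
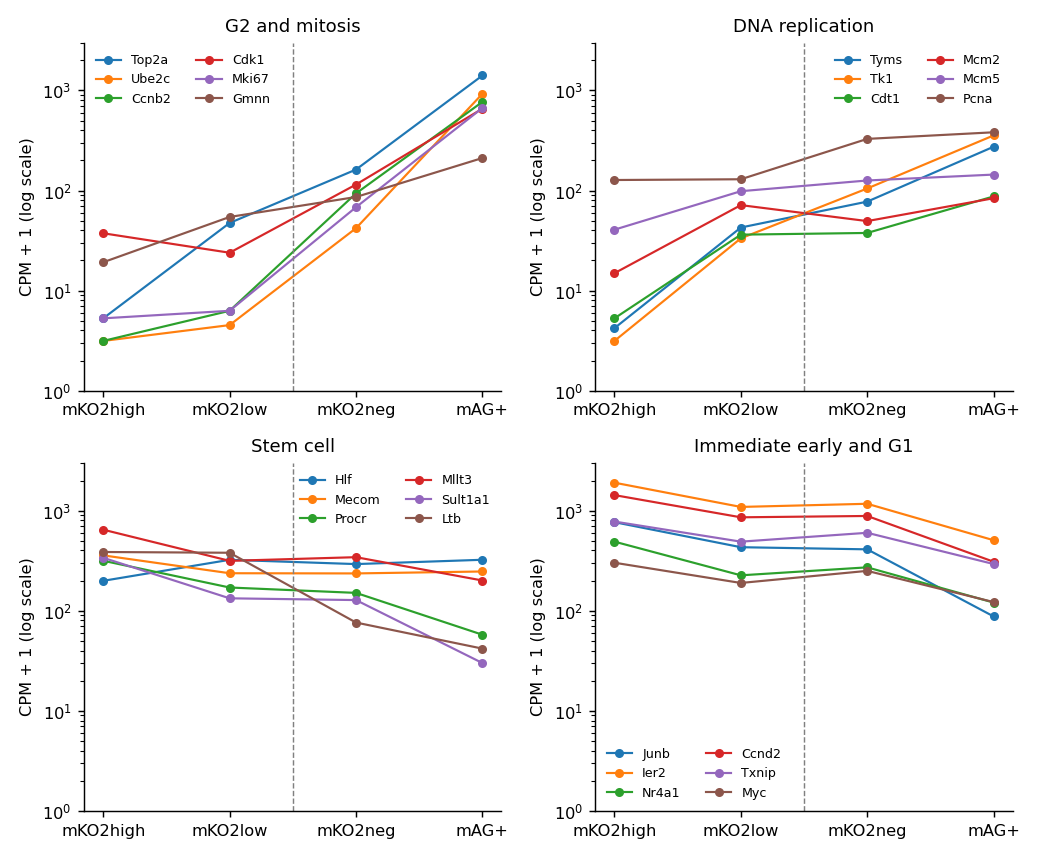
Lines join a gene's CPM plus 1 (log scale) across the 4 gates, and the dashed line separates the library of mKO2high and mKO2low from that of mKO2neg and mAG+. Mitotic genes such as Top2a (4.28 CPM in mKO2high, 1409 in mAG+) jump at mAG+, whereas Procr and Ccnd2 are highest in mKO2high.

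Replication-dependent histone genes, whose transcripts are made in S phase and mostly lack a poly(A) tail, were at least 2-fold higher in mAG+ for 20 of 24 measured, of 28 listed, and in mKO2high for 3. Their median log2 ratio was 3.94, or 1.80 with the 11 genes without counts in mKO2high at the floor. Hist1h2ae had 1171 counts against 8, a log2 ratio of 5.53 (4.63 to 6.83), and Hist1h1b, a linker histone, had 301 against 1. Hist1h2bc went the other way, at 34.0 CPM in mAG+, then 396 (mKO2neg), 62.8 (mKO2low) and 179 (mKO2high). The summed histone level, 1488 CPM in mAG+ and 858 in mKO2high against 1592 in mKO2neg, did not follow the order of the gates. Histone genes are near-identical copies, so their single values are uncertain.

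DNA repair genes were higher in mAG+ too, with 22 of 27 measured, of 29 listed, at least 2-fold higher and 1 in mKO2high. Their median was 2.93 (1.87 to 4.19), or 2.64 with the 6 members without counts in mKO2high at the floor. Neil3, a glycosylase of S and G2 cells, had 701 counts against none, at least 78.2-fold higher. Blm, a helicase of recombination, had 192 against 3. Chromatin enzymes leaned toward mAG+, with 14 of 28 at least 2-fold higher there (background 26.2%) and 2 in mKO2high (background 17.1%). Their median was 1.01 (0.31 to 1.69). Hmgb2 and Dnmt1, given next, are also members of the G2 and mitosis or DNA replication lists, so they are not separate evidence. Hmgb2, a DNA-bending protein, was at 3285 CPM in mAG+, then 586 (mKO2neg), 303 (mKO2low) and 134 (mKO2high), a log2 ratio of 4.61 (4.36 to 4.88). Dnmt1, the maintenance DNA methyltransferase, was at 290 CPM in mAG+ against 79.2, and Dnmt3a, a de novo methyltransferase, at 48.4 against 214, so the 2 enzymes differed in direction.

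Of 23 measured genes of G1 cyclins, CDK inhibitors, E2F and pocket proteins, 13 were at least 2-fold higher in mAG+ and 4 in mKO2high, and the median was 1.25 (0.56 to 1.94). The D-type cyclins Ccnd1, Ccnd2 and Ccnd3 were lower in mAG+, Ccnd3 by little (log2 ratio -0.50, -0.93 to -0.08), whereas Ccne2, an E-type cyclin of S phase entry, was higher there, with 71 counts against 3. Ccne1, the other E-type cyclin, was at 14.0 CPM in mAG+ against 12.8 in mKO2high, with an interval of the log2 ratio across 0 (0.12, -0.84 to 1.19). Ccnd2, a D-type cyclin that receives growth signals, was at 308 CPM in mAG+, then 884 (mKO2neg), 857 (mKO2low) and 1429 (mKO2high), a log2 ratio of -2.21 (-2.34 to -2.09). At equal depth 64.4% of mAG+ and 94.9% of mKO2high cells held a Ccnd2 count. Ccnd1 was at -3.20 from 11 and 38 counts, and -0.48 at equal depth. Cdk6, a partner kinase of the D-type cyclins, was higher in mAG+, at 146 CPM against 52.5, a log2 ratio of 1.47 (1.05 to 1.94). Cdk4, the other, was at 401 against 313 CPM. The D-type cyclins and their kinases did not share a direction.

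Inhibitors of the cyclin-dependent kinases went both ways. Of 5 measured, 3 were at least 2-fold higher in mAG+ and 1 in mKO2high. Cdkn1c (p57), known from resting stem cells, was at 36.5 CPM in mAG+ against 80.3 in mKO2high (log2 ratio -1.12, -1.58 to -0.69), but at 0.96 at equal depth. Cdkn1b (p27) was at 1.65 from 78 and 8 counts and at -0.17 at equal depth. Cdkn2c (p18), an inhibitor that is itself an E2F target, was at 44.8 CPM against 3.21, a log2 ratio of 3.60 (2.22 to 6.10). Of 10 E2F and pocket protein genes, 8 were at least 2-fold higher in mAG+. E2f8 and E2f2 had 128 and 114 counts in mAG+ and none in mKO2high, whereas E2f1 had 3 and 11.

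Stem cell genes as a list were lower in mAG+ than in mKO2high, but not uniformly. Of 61 measured of 64 listed, 18 were at least 2-fold higher in mKO2high (background 17.1%) and 6 in mAG+ (background 26.2%), and the median log2 ratio was -0.56 (-0.90 to -0.31). At equal depth 15 of 51 were at least 2-fold higher in mKO2high (background 14.2%), 2 in mAG+, with a median of -0.66. The summed level was 18968 CPM in mKO2high, then 16165 (mKO2low), 14450 (mKO2neg) and 10003 (mAG+), in the order of the gates.

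Among 23 measured stem cell transcription factors, 5 were at least 2-fold higher in mKO2high and 2 in mAG+, and the median was -0.42. Hlf, a factor largely restricted to stem cells in the blood system, was lowest in mKO2high, at 198 CPM against 322 (mKO2low), 292 (mKO2neg) and 322 (mAG+), a log2 ratio of 0.70 (0.47 to 0.94). Mecom, a factor that stem cells need to persist, was at 357 CPM in mKO2high and at 236, 235 and 246 in mKO2low, mKO2neg and mAG+. For these 2 factors the other 3 gates lay close together and mKO2high stood apart, below them for Hlf and above them for Mecom. Mllt3, which keeps up stem cell self-renewal, was at 644 CPM in mKO2high, then 314 (mKO2low), 342 (mKO2neg) and 199 (mAG+), a log2 ratio of -1.69 (-1.86 to -1.52). Meis1, a homeobox factor, was at -0.78 (-0.95 to -0.61).

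Surface and signalling genes of the list had a lower median, with 13 of 38 at least 2-fold higher in mKO2high, 4 in mAG+, and a median of -0.81. Procr, the protein C receptor used to sort stem cells, was at 315 CPM in mKO2high, then 170 (mKO2low), 150 (mKO2neg) and 56.6 (mAG+), a log2 ratio of -2.46 (-2.76 to -2.19), and was counted in 61.5% of mKO2high and 24.4% of mAG+ cells at equal depth. Ly6a (Sca-1), another sorting marker, was at 400 CPM in mKO2high and 127 in mAG+. Sult1a1, a sulfotransferase, had the same order, at 337, 132, 127 and 29.0 CPM from mKO2high to mAG+, a log2 ratio of -3.51 (-3.91 to -3.18). Kit, the stem cell factor receptor, was at 173 CPM in mKO2high against 205 in mAG+, with an interval of the log2 ratio from -0.01 to 0.50. Robo4 went the other way, at 16.1 CPM in mKO2high and 56.2 in mAG+, a log2 ratio of 1.77 (1.04 to 2.68). Cd34 was at 0.27 (-0.10 to 0.65), but at 2.62 at equal depth, from 41 counts in mAG+ and 5 in mKO2high. Ltb, lymphotoxin beta, split by library, at 385 and 379 CPM in mKO2high and mKO2low and 75.2 and 40.8 in mKO2neg and mAG+. Its log2 ratio of -2.32 between the middle gates was larger in size than the -0.87 and -0.03 within the libraries, and the part of the library was not tested.

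Immediate early genes, which cells switch on within minutes of a stimulus, had the lowest median of the 25 lists. Of 20 measured, 12 were at least 2-fold higher in mKO2high and none in mAG+, and the median log2 ratio was -1.31 (-1.50 to -1.10). At equal depth, 11 of 18 were, with a median of -1.53. The summed level was 10572 CPM in mKO2high, then 8303 (mKO2low), 6580 (mKO2neg) and 3730 (mAG+).

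Junb, an AP-1 subunit, was at 767 CPM in mKO2high, then 430 (mKO2low), 410 (mKO2neg) and 86.7 (mAG+), a log2 ratio of -3.14 (-3.36 to -2.93). Ier2 was at 1902, 1088, 1171 and 505 CPM in the same order, and Nr4a1, an orphan nuclear receptor, at 489, 225, 270 and 120. In each the middle gates were close to each other, with mKO2high above and mAG+ below them. Egr1, a zinc finger factor linked to stem cell rest, was at 452 CPM in mKO2high and 59.8 in mAG+, a log2 ratio of -2.91 (-3.18 to -2.66). Egr1 is also a member of the stem cell list, so it is not separate evidence. Btg2, an antiproliferative gene, was at 197 against 29.0, and Dusp2, a phosphatase of MAP kinases, at 290 against 43.3.

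**Figure D4:**
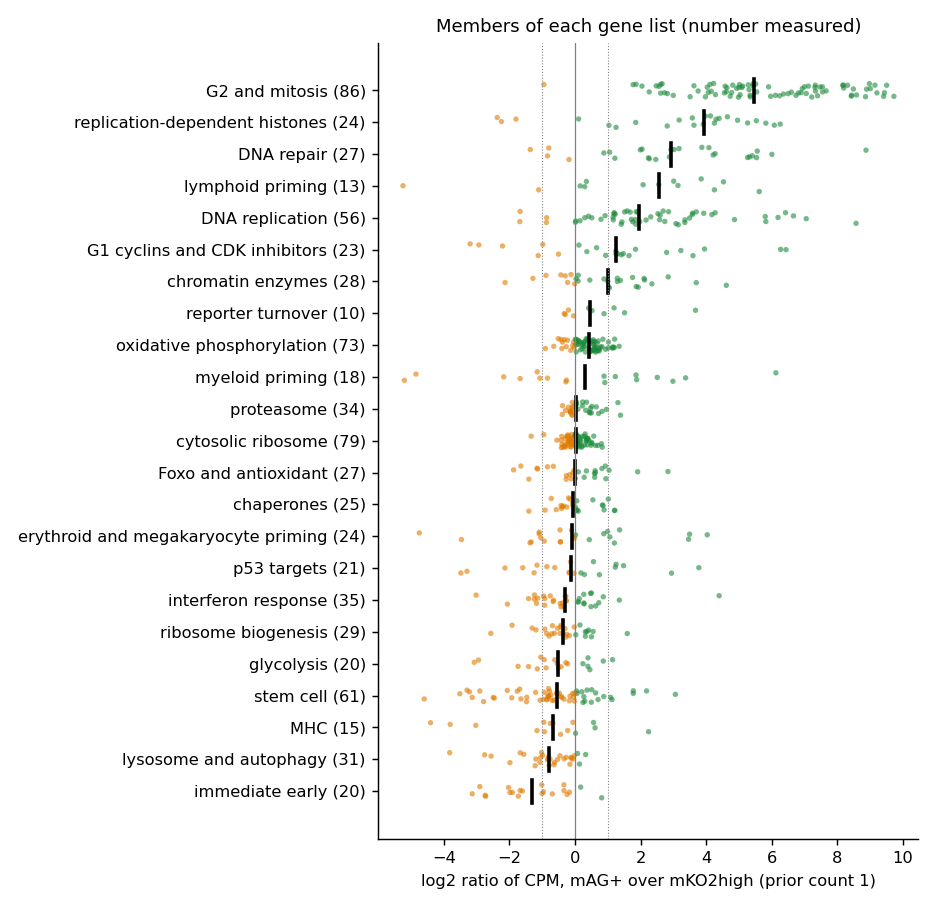
Each point is a measured member of a gene list, placed by its log2 ratio of mAG+ over mKO2high, and black bars mark the medians. Lists run from G2 and mitosis (median 5.47) to immediate early genes (median -1.31), and dotted lines mark 2-fold.

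Energy metabolism differed by branch. Nuclear-encoded respiratory chain genes were slightly higher in mAG+, above 0 for 60 of 73 (all measured genes 54.3%) but at least 2-fold higher for 8, with a median of 0.42 (0.17 to 0.65). Cox7a2 and Uqcrfs1, subunits of complexes IV and III, were at 1.21 and 1.34. Mitochondrially encoded genes had a median of -0.21 over 8 measured, none past 2-fold. Glycolysis genes had a median of -0.53 (-0.95 to -0.13), with 6 of 20 at least 2-fold higher in mKO2high and 1 in mAG+. Aldoa, an aldolase whose symbol more than 1 gene model carries, was at 122 CPM in mAG+ and 943 in mKO2high, which gave -2.94 (-3.13 to -2.77) on the log2 scale and -3.05 at equal depth. Aldoc, another aldolase, was at -3.07 from 4 and 15 counts. Ldha, lactate dehydrogenase, was at 364 CPM in mAG+ and 809 in mKO2high, whereas Gapdh was at 906 and 499, so members of the pathway went both ways.

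The machinery for making and destroying protein differed little. Cytosolic ribosomal protein genes had a median of 0.02 over 79, with 1 past 2-fold, and proteasome genes a median of 0.04 over 34, with 2 past 2-fold. Ribosomal protein genes summed to 182338 CPM in mAG+ and 187181 in mKO2high, both below the middle gates at 219277 in mKO2neg and 219639 in mKO2low. Ribosome biogenesis genes had a median of -0.36, and Myc, which drives them, was at 121 CPM in mAG+ against 301 in mKO2high (log2 ratio -1.31, -1.55 to -1.08). That ratio is of summed counts, with 281 Myc counts in 26 mKO2high cells, and at equal depth it was -1.38. The mean of per-cell CPM in mKO2high was higher, at 950, with 72.2% of the per-cell sum in 1 cell. In that mean a single count in a shallow cell weighs much, so the 72.2% is not a share of the Myc counts. Lysosome and autophagy genes lay toward mKO2high, with 11 of 31 at least 2-fold higher there, none in mAG+, and a median of -0.79 (-1.24 to -0.35). Sqstm1, an autophagy receptor, was at 74.2 CPM in mAG+ and 296 in mKO2high, and Ctsl, a lysosomal protease, at 20.4 and 123.

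Between neighbouring gates, the mitotic genes differed most within the first library. Their median log2 ratio was 3.06 from mKO2neg to mAG+, 1.05 between the middle gates across libraries and 0.96 from mKO2high to mKO2low. For DNA replication genes the 3 medians were 0.86, 0.29 and 0.92, so both steps within a library were larger than the step across libraries. Stem cell genes were at -0.40, -0.18 and -0.14 and immediate early genes at -0.74, -0.38 and -0.37. The medians of the 11849 genes over the same steps were 0.12, 0.00 and 0.00. Each step compares summed counts, so a few cells can carry it. The median per-cell share of the mitotic genes was 0.338% in mKO2neg, 0.333% in mKO2low and 0.341% in mKO2high. For these 4 lists the step within the mAG+ library and the step within the mKO2high library each had the sign of the direct comparison, and the extremes and steps share their gates, so these values are not independent of one another. Other lists went otherwise. Interferon response genes were at -0.0053 and 0.50 within the libraries and at -0.85 across them, and mitochondrially encoded genes at 0.14 and -0.019 within and -0.40 across. Histone genes were at 1.15 within the mAG+ library, 0 within the mKO2high library and 1.63 across. Glycolysis genes were at -0.44 within the mAG+ library, -0.17 across and 0.080 within the mKO2high library. The part of the library in these was not tested.

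**Figure D5:**
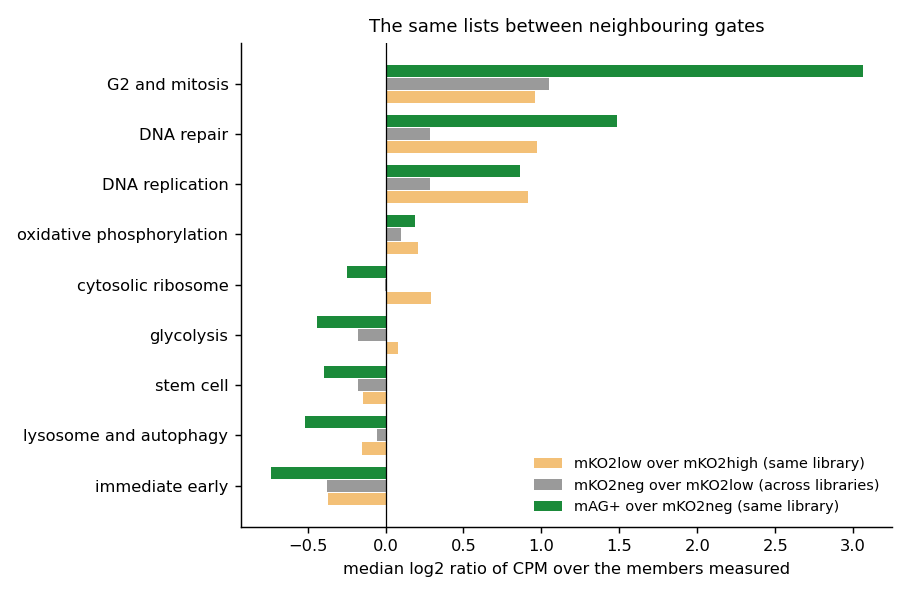
Bars give the median log2 ratio of a list's measured members over the 3 steps from mKO2high to mAG+. G2 and mitosis genes reach 3.06 from mKO2neg to mAG+ within one library, against 1.05 across libraries and 0.96 from mKO2high to mKO2low.

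Beyond the lists, protein-coding genes with counts spread over at least 12 cells were ranked by the limit of their interval nearest 0, and the first 15 in each direction taken. Those higher in mAG+ included Pclaf, a partner of the Pcna clamp, with 1253 counts in 43 mAG+ cells and none in mKO2high, at least 140-fold higher. Knstrn, a kinetochore protein, had 826 against none. Esco2, which joins sister chromatids by acetylating cohesin, had 735 against 1, and Cenpk, a centromere protein, 633 against 2. Pimreg, Mxd3, Sapcd2, Arhgef39, Ankle1, Fignl1, Melk, Spag5 and Troap had 280 to 1133 counts in mAG+ and at most 1 in mKO2high. Alb, serum albumin, a liver gene, was also among the 15, with 207.8 CPM in mAG+ and 47.9 in mKO2neg against 0.587 in mKO2low and 1.07 in mKO2high. Its log2 ratio of 5.35 between the middle gates followed the split by library, and the part of the library in it was not tested.

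Higher in mKO2high were Tcp11l2, at 125 CPM against 2.51, a log2 ratio of -5.37 (-6.99 to -4.55), and Lst1, a leukocyte transcript, at 607 against 70.2. Ppp1r15a, a phosphatase subunit of the stress response, was at 1017 CPM in mKO2high, then 308 (mKO2low), 267 (mKO2neg) and 139 (mAG+). Here mKO2high stood apart from the other gates. Pik3ip1, an inhibitor of PI3 kinase, was at 519 CPM against 93.5, Nfix, a factor of stem and progenitor cells, at 345 against 63.4, and Xbp1, a factor of the unfolded protein response, at 224 against 41.6. Spr, Tgtp1, Slfn2, Zfpl1, Padi4, Afg3l2, Tmbim1, Ppcdc and Myl10 had log2 ratios from -3.54 to -2.45. Myl10 split by library, at -3.57 between the middle gates and 0.88 from mKO2high to mKO2low, and the part of the library was not tested.

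Lineage genes were mixed in direction, and the B-lineage counts of mAG+ came mostly from 1 cell. Myeloid priming genes had 7 of 18 measured at least 2-fold higher in mAG+ and 6 in mKO2high, and erythroid and megakaryocyte genes 6 and 7 of 24. Over all measured genes the shares were 26.2% in mAG+ and 17.1% in mKO2high. Of 11 measured megakaryocyte genes, 5 were at least 2-fold higher in mKO2high and 3 in mAG+. Pf4, platelet factor 4, was at 16.5 CPM in mAG+ and 187 in mKO2high, and Gp9, a platelet receptor subunit, at 39.0 and 99.6. Of the summed per-cell Pf4 level of mKO2high, 55.7% lay in 1 cell. Itgb3 and Treml1 went the other way, with 49 counts in mAG+ against 1 and 23 against none. For Itgb3, 82.0% of the summed per-cell level of mAG+ lay in 1 cell. Vwf was also higher in mAG+ in summed counts, at 81.0 CPM against 43.9. At equal depth its log2 ratio was 0.075, from 11 and 9 counts, and 11.1% of mAG+ and 17.9% of mKO2high cells held a count. Lymphoid genes had 8 of 13 at least 2-fold higher in mAG+ and a median of 2.55, but 1 mAG+ cell held 1282 of the 1443 counts of 10 B-lineage genes in that gate. That cell held 250 of 251 Dntt counts and 227 of 230 Vpreb3 counts, and 51 G2 and mitosis genes at equal depth. Without it and the mKO2high cell richest in class II genes, the lymphoid median was -0.016, and at equal depth it was -0.27.

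MHC class II genes lay toward mKO2high in a few cells. Cd74, the class II chaperone, was at 28.3 CPM in mAG+, then 59.7 (mKO2neg), 144 (mKO2low) and 611 (mKO2high), and H2-Aa at 28.3, 36.7, 57.0 and 235. Of the 571 Cd74 counts in mKO2high, 385 were in 1 cell, and 17 of 48 cells held any. The Cd74 log2 ratio was -4.41, and -2.83 without that cell and the mAG+ cell rich in B-lineage genes. H2-Ab1 had no count in mKO2high. Class I genes, which are near-identical copies in part, had a median of -0.44. Of 22 measured genes of other blood cells, 12 were at least 2-fold higher in mAG+ (background 26.2%) and none in mKO2high. Of the 12, 4 were mature B cell genes. The list median of 1.19 had a range across 0 (-0.37 to 2.34), and at equal depth 2 of 8 were at least 2-fold higher in mAG+. Summed levels were 270 CPM in mAG+ and 109 in mKO2high over 5 neutrophil markers. Over 4 macrophage markers they were 36.2 and 25.7 CPM. The neutrophil markers split by library, at 500.4 CPM in mKO2neg and 79.3 in mKO2low. The 4 B cell markers summed to 115 CPM in mAG+ and 71.7 in mKO2high, where all 67 counts were those of Cd79b. Cd79b itself was at 78.5 CPM in mAG+. The part of these markers in the differences above was not tested.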

How the data were processed

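The deposited tables hold whole-number counts per gene and cell, not normalized. Per the submitters' processing notes, the tools were HISAT2, HTSeq 0.11.3 and Seurat and the build mm10, with no step given for any of them. The annotation release, filters, strand setting and any molecular identifiers were not given in the sources. The 105 rows absent from GENCODE M21 (0.222% of counts) stayed in the totals. In GENCODE, 97.6% of genes had the same preceding gene as in the tables; exceptions among the genes read include Sod1, Troap, Ifit1, Iigp1 and Cebpd.

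Counts were summed per gate, scaled to CPM and compared as log2 ratios (prior count 1) with exact conditional binomial 95% intervals. With 1 sample a gate no test was run. TMM factors came from edgeR 4.0.16 and size factors from DESeq2 1.42.0, as alternatives. The ratios were tested on simulated data. Doublets were not called.

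Named genes were fixed landmarks, up to 6 members a list by the interval limit farthest from 0, up to 2 in the other direction, and 15 further protein-coding genes a direction. Members and lists were chosen with earlier results of these data known. Some genes are not reported here.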

Additional observations from a re-analysis of the deposited data

How the results depend on the processing

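No paired analysis was possible because each gate is 1 sample and the labels give the gates no replicate numbers. Counts of genes changed with the filter and with depth, settings that alter how many genes are measured. The number of genes at least 2-fold higher in mAG+ (3105) was 1043 at equal depth, 4669 with no filter and 1635 with at least 50 counts. The number of genes at least 2-fold higher in mKO2high (2024) was 904 at equal depth, 3744 with no filter, 1044 with at least 50 counts and 1158 with the largest cell of each gene left out. The share of mKO2high cells with at least 3 G2 and mitosis genes was 97.4%, against 89.7% with at least 5. Under the labels as deposited, the median of the G2 and mitosis genes was 0.56 and that of the DNA replication genes 0.080, and the medians of glycolysis (0.032), MHC (0.023), lysosome and autophagy (0.088) and chromatin enzymes (-0.30) changed sign. The lymphoid median changed sign at equal depth (-0.27) and, in an alternative chosen after seeing the data, without the cells richest in B-lineage and class II counts (-0.016), and the mitochondrially encoded median did with cells of at least 1000 genes (0.054). Of 350 alternative list medians, 315 stayed within the reported range, 28 moved out of it and 7 changed sign; of 3316 values of named genes the numbers were 2941, 338 and 37. TMM factors and DESeq2's size factors changed none of these medians beyond the range.

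Changes of sign were counted for values at least 2-fold apart and measured under the alternative. At equal depth they were those of Cdkn1b (-0.17), Cdkn1c (0.96, and 0.59 with equal weight per cell) and S100a9 (-0.66). With equal weight per cell Hk2 was at 0.039. Without the deepest cell of each gate, chosen after seeing the data, Ifit1 was at 1.45 and Ung at 1.67. Without the B-lineage and class II cells Dntt was at -3.68, Ebf1 at -2.06 and Pole2 at 0.21. Read under the deposited labels, the rows of 27 named genes had the opposite sign, among them Cdt1 -1.12, Mcm2 -1.48, Mcm6 -0.083, E2f1 0.42, Skp2 -1.87, Prss57 -0.84, Vpreb1 -0.52, Rag1 -1.08, Cox7a2 -0.65, Ndufs6 -0.45, Junb 1.41, Ier2 0.69, Nqo1 -0.99, Sod1 -1.15, Sqstm1 1.23, Uhrf1 -0.62, Hmgn2 -0.51, Cd79a -0.56, Mxd3 -0.27, Alb -2.93, Ankle1 -0.98, Fignl1 -0.36, Spag5 -3.07, Pik3ip1 2.28, Zfpl1 5.15 and Xbp1 0.32. The cause of the other changes was not tested. At 934036 counts, a gene without counts in the mKO2high gate may still be at up to 3.21 CPM (3 counts) there, which limits every ratio against such a gene.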

Other observations

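Stress and defence genes went both ways between the gates. Of 35 measured interferon response genes, 7 were at least 2-fold higher in mKO2high (background 17.1%) and 2 in mAG+ (background 26.2%). Their median of -0.30 had a range across 0 (-0.78 to 0.32). Ifi44 was at 11.8 CPM in mAG+ and 99.6 in mKO2high, and Irgm1, an interferon-induced GTPase, at 57.3 and 154. Ifi44 split by library, at 99.6 and 92.2 CPM in mKO2high and mKO2low, against 32.3 in mKO2neg, and the part of the library was not tested. Targets of p53 had 6 of 21 at least 2-fold higher in mKO2high (background 17.1%) and 5 in mAG+ (background 26.2%). Plk2 was at 22.9 CPM in mAG+ and 103 in mKO2high, and Ccng1 at 30.4 and 93.1, whereas Trp53 itself was at 307 and 208.

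Foxo and antioxidant genes had a median of 0.01. Txnip, an inhibitor of thioredoxin that responds to glucose, was at 292 CPM in mAG+, then 600 (mKO2neg), 489 (mKO2low) and 777 (mKO2high). Txn1, thioredoxin, went the other way, at 1003 CPM in mAG+, then 716 (mKO2neg), 608 (mKO2low) and 522 (mKO2high). Sod2, the mitochondrial superoxide dismutase, was at 73.4 CPM in mAG+ and 271 in mKO2high, and Sod1, the cytosolic one, at 396 and 193. Chaperones had a median of -0.07, with Hspa5, the main chaperone of the endoplasmic reticulum, at 220.3 CPM in mAG+ and 587 in mKO2high, and Hsp90b1, another of that compartment, at 443 and 220.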
